A study of Rattus norvegicus with 4 samples.

Results

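The genes described here encode 9 enzymes that make serine, pass its carbon to folate, and make asparagine. They were chosen by symbol, with earlier results of these data known. Members are Phgdh, Psat1 and Psph (serine synthesis), Shmt1 and Mthfd1 (cytosolic one-carbon enzymes), Shmt2, Mthfd2 and Mthfd1l (mitochondrial one-carbon enzymes) and Asns (asparagine synthetase). All 9 symbols were found among 14217 named genes, each on 1 probe set, so 9 of 20826 named probe sets are described.

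Expression was measured on Affymetrix arrays in hippocampal progenitor cells of Fisher 344 rats, with 1 array for each of 4 groups. The groups were KHS101, a compound tested for neuronal differentiation, at 5 uM, KHS101 at 1.7 uM, 1 uM retinoic acid together with forskolin (an activator of adenylyl cyclase) as positive control, and the solvent DMSO (0.1%) as negative control. Per the labels' protocols, which cover several experiments, all groups began as early passage cells, seeded into N2-supplemented medium at 1000 per square centimetre and kept with compound or solvent for 4 days. No label used here states how much forskolin was added, and the design text names this control by retinoic acid only.

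Proliferating cells make serine from a glycolytic intermediate by the successive action of Phgdh, Psat1 and Psph. Serine hydroxymethyltransferases then move a carbon of serine onto folate, Shmt1 in the cytosol and Shmt2 in mitochondria, and enzymes of the Mthfd family oxidise that carbon, release it as formate or supply it to nucleotide synthesis. Asparagine synthetase makes asparagine from aspartate and glutamine. In mammalian cells Asns, Phgdh, Psat1, Shmt2 and Mthfd2 are known targets of ATF4, the transcription factor of the integrated stress response, and Phgdh protein is abundant in radial glia and astrocytes of the rodent brain.

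Sequence upstream of the genes is shown for 3 of them, because Shmt1 and Shmt2 catalyse the same reaction in different compartments and differed in opposite directions with KHS101, and Asns had the largest difference. RefSeq held a promoter window (250 bases before to 50 after the annotated start) in build GRCr8 for 8 of the 9 genes, all but Mthfd1. Capitals mark CACGTG, the E-box bound by MYC and related factors. The windows were also searched on both strands for TGATGNAA, the core of the element bound by ATF4 with C/EBP proteins; no match overlapped another.
Shmt1, chr10:45990292-45990591, minus strand: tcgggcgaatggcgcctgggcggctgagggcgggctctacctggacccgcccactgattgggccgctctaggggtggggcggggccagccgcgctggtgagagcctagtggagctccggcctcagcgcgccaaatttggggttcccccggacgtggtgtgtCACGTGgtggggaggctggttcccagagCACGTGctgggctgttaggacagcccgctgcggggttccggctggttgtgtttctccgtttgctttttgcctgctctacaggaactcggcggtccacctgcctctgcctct
Shmt2, chr7:65249518-65249817, minus strand: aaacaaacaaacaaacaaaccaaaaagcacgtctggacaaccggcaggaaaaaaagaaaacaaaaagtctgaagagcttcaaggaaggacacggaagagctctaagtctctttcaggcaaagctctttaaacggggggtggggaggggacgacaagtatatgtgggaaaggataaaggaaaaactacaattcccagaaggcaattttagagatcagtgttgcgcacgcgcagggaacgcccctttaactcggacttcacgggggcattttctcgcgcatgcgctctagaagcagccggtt
Asns, chr4:36769366-36769665, minus strand: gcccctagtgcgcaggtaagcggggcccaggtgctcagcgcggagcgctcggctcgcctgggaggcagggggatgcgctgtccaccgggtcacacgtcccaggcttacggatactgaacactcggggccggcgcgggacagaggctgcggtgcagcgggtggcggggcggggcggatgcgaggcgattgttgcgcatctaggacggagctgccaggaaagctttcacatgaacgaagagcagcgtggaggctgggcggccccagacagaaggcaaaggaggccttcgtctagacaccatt
The Shmt1 window held 2 copies of CACGTG, which begin 89 and 61 bases before the annotated start, and the other 7 windows held none. TGATGNAA was in 0 of the 8 windows. Over 33469 RefSeq promoters of the same length, 6.42% held CACGTG and 3.98% held TGATGNAA. A match is a description of letters, and the absence of one says only that the letters are not in this window.

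Values are log2 expression values as deposited, and a difference is the value on the first named array minus that on the second. Values under log2 = 5, taken as the limit of specific signal, were raised to 5; none of the 9 genes came near it, the lowest value being 6.52. A difference of 1 log2 unit or more in size (2-fold) is called higher or lower. No group has a second array, so differences have no replicate check and no test was possible. Precision is limited by the number of arrays. Levels of different probe sets are not compared with each other.

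On each array between 8389 and 8471 named genes lay above the floor. All 5 progenitor markers (Nes, Sox2, Vim, Fabp7, Hes1) were above it on every array, and so were the 4 annotated markers of the oligodendrocyte lineage. The astrocyte markers Slc1a3, S100b and Aldoc and the neuronal markers Tubb3 and Map2 were also above the floor on every array. Gfap, Aqp4, Dcx, Rbfox3, Snap25 and the 5 microglial markers were at or under it on every array, as were 4 of the 5 fibroblast markers; the other one, Postn, was under it in DMSO and above it on the 3 treated arrays. As a sign of RNA integrity, beta-actin control probe sets at the 3' end exceeded those at the 5' end by 1.54 log2 units in KHS101 at 5 uM, 1.40 at 1.7 uM and 1.37 with retinoic acid plus forskolin, against 1.26 in DMSO. The same difference for hexokinase was 0.96, 0.80 and 0.66, against 0.69 in DMSO, and that for GAPDH lay between -0.16 and -0.11 on all 4 arrays. The part of RNA integrity in the results was not tested.

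Asns was the member with the largest difference from DMSO. Its log2 level was 13.92 in KHS101 at 5 uM, 13.83 in KHS101 at 1.7 uM and 10.94 with retinoic acid plus forskolin, against 11.79 in DMSO. Both KHS101 arrays were high, the retinoic acid array was lowest and DMSO lay between. Asns was 4.38-fold higher at 5 uM (log2 difference 2.13) and 4.14-fold higher at 1.7 uM (2.05) than in DMSO, places 122 of 8543 and 82 of 8533 measured genes counted from the highest. With retinoic acid and forskolin the difference was -0.84, short of 2-fold. Against retinoic acid and forskolin directly, Asns was 7.86-fold higher in KHS101 at 5 uM and 7.42-fold higher at 1.7 uM.

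**Figure D1:**
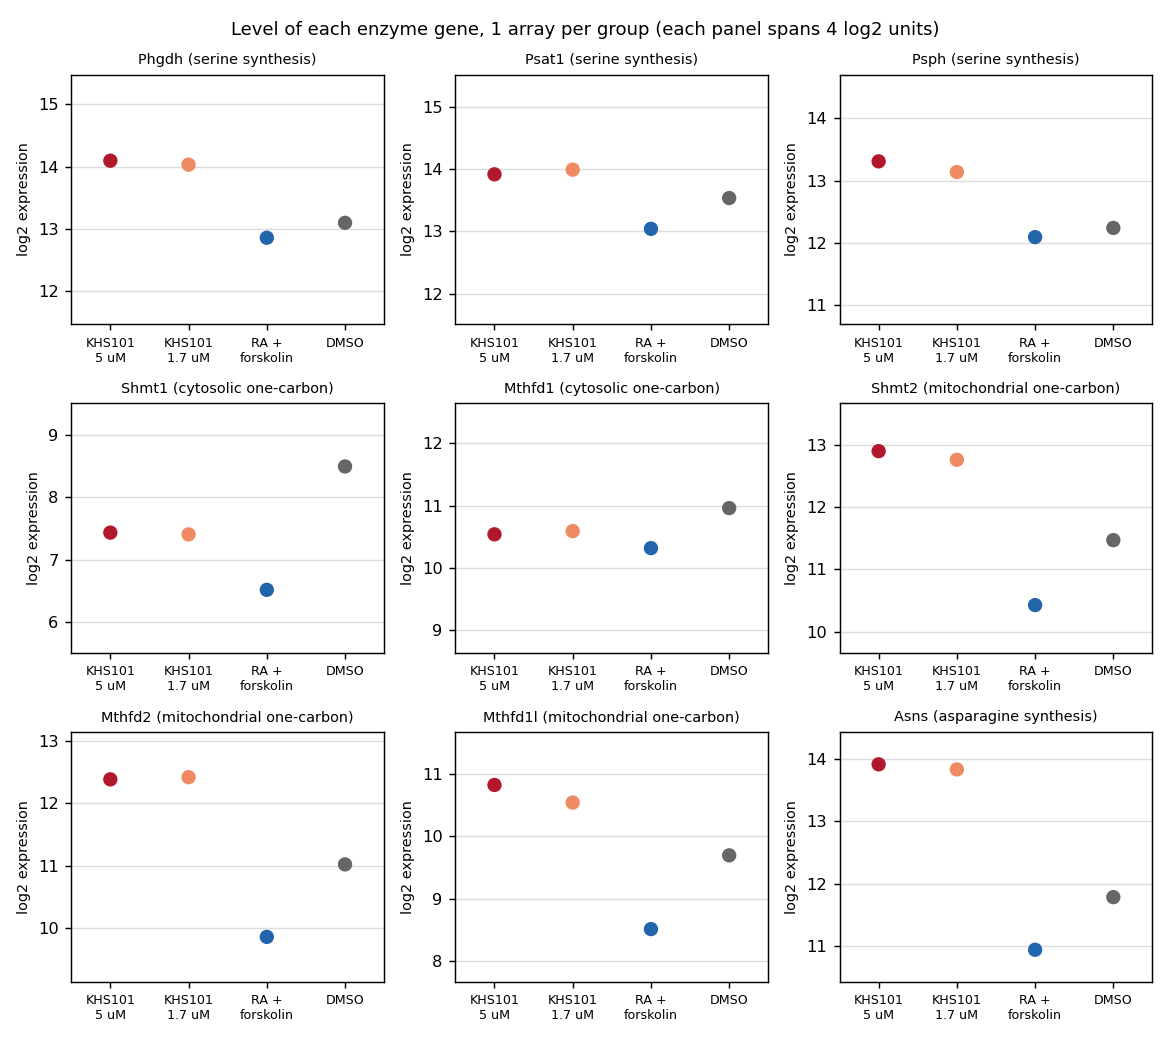
Log2 expression (vertical axis) of the 9 genes on each array, 1 point per array, in panels that each span 4 log2 units. In 7 panels both KHS101 arrays lie above DMSO and the retinoic acid array below it. Of 8646 genes above the floor on any array, 17.4% had this order. Shmt1 and Mthfd1 are highest in DMSO with the retinoic acid array lowest, an order of 7.11% of these genes. In all 9 panels the retinoic acid array is lowest, as for 31.1% of these genes.

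The 3 mitochondrial enzymes had the array order of Asns, with both KHS101 arrays above DMSO and retinoic acid with forskolin lowest; their differences from DMSO were smaller than that of Asns with KHS101 and larger with retinoic acid and forskolin. Shmt2, which splits serine into glycine and a folate-bound carbon in mitochondria, had log2 levels of 12.89 in KHS101 at 5 uM, 12.76 at 1.7 uM and 10.43 with retinoic acid plus forskolin, against 11.47 in DMSO. It was 2.69-fold higher at 5 uM and 2.44-fold higher at 1.7 uM, and 2.06-fold lower with retinoic acid and forskolin. All 3 treatments thus passed 2-fold from DMSO, in opposite directions for the compounds.

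Mthfd2, the mitochondrial dehydrogenase and cyclohydrolase that oxidises the folate-bound carbon, had log2 levels of 12.39 in KHS101 at 5 uM, 12.42 at 1.7 uM and 9.86 with retinoic acid plus forskolin, against 11.02 in DMSO. The KHS101 arrays differed from each other by 0.03 and stood well above the other arrays. Mthfd2 was 2.57-fold higher at 5 uM, 2.64-fold higher at 1.7 uM and 2.24-fold lower with retinoic acid plus forskolin than in DMSO.

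Mthfd1l releases the carbon as formate, which leaves the mitochondrion. Its log2 level was 10.83 in KHS101 at 5 uM, 10.54 at 1.7 uM and 8.51 with retinoic acid plus forskolin, against 9.70 in DMSO. It was 2.19-fold higher than DMSO at 5 uM, and its difference of 0.85 at 1.7 uM missed 2-fold. With retinoic acid and forskolin Mthfd1l was 2.27-fold lower, the largest difference downward of the 3 mitochondrial genes. Mthfd1l also had the largest difference between the KHS101 arrays of the 9 genes, 0.28.

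The cytosolic enzymes were highest in DMSO. Shmt1, the cytosolic counterpart of Shmt2, had log2 levels of 7.44 in KHS101 at 5 uM, 7.41 at 1.7 uM and 6.52 with retinoic acid plus forskolin, against 8.50 in DMSO. All 3 treated arrays were at least 1 log2 unit below DMSO. Shmt1 was 2.09-fold lower at 5 uM, 2.13-fold lower at 1.7 uM and 3.94-fold lower with retinoic acid plus forskolin. In the last comparison it held place 9 of 8535 measured genes counted from the lowest, and at 5 uM and 1.7 uM it held places 631 of 8543 and 298 of 8533.

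Mthfd1 carries 3 folate-converting activities on 1 cytosolic protein. Its log2 level was 10.54 in KHS101 at 5 uM, 10.59 at 1.7 uM and 10.32 with retinoic acid plus forskolin, against 10.96 in DMSO. Its differences from DMSO of -0.42, -0.37 and -0.64 in the same order were all short of 2-fold. Over the 4 arrays Mthfd1 had the narrowest range of the 9 genes, 0.64 log2 units, and Asns the widest, 2.97.

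The compartments differed in direction with KHS101. The median difference from DMSO at 5 uM was 1.36 for the 3 mitochondrial genes and -0.74 for the 2 cytosolic ones, 2.11 apart. At 1.7 uM the medians were 1.29 and -0.73, 2.02 apart. The lowest mitochondrial difference lay 1.55 above the higher cytosolic one at 5 uM and 1.21 above it at 1.7 uM. With retinoic acid and forskolin the medians were -1.16 for the mitochondrial and -1.31 for the cytosolic genes, 0.15 apart, and the ranges overlapped, because Mthfd1 (-0.64) lay above all 3 mitochondrial genes and Shmt1 (-1.98) below them. Shmt2 and Shmt1, the pair that shares a reaction, differed from each other in log2 difference by 2.49 at 5 uM, 2.38 at 1.7 uM and 0.94 with retinoic acid plus forskolin. These are sets of 3 and 2 probe sets on shared arrays, so their spread is not a replicate error.

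Set directly against retinoic acid and forskolin, KHS101 at 5 uM had a median difference of 2.47 for the mitochondrial genes and 0.57 for the cytosolic ones. At 1.7 uM these medians were 2.33 and 0.58. All 5 genes were above the retinoic acid array at both concentrations. Mthfd2 was 5.76-fold higher at 5 uM and 5.90-fold higher at 1.7 uM, Shmt2 5.53-fold and 5.03-fold, and Mthfd1l 4.97-fold and 4.08-fold. Shmt1 (0.92 and 0.89) and Mthfd1 (0.22 and 0.27) stayed short of 2-fold.

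**Figure D2:**
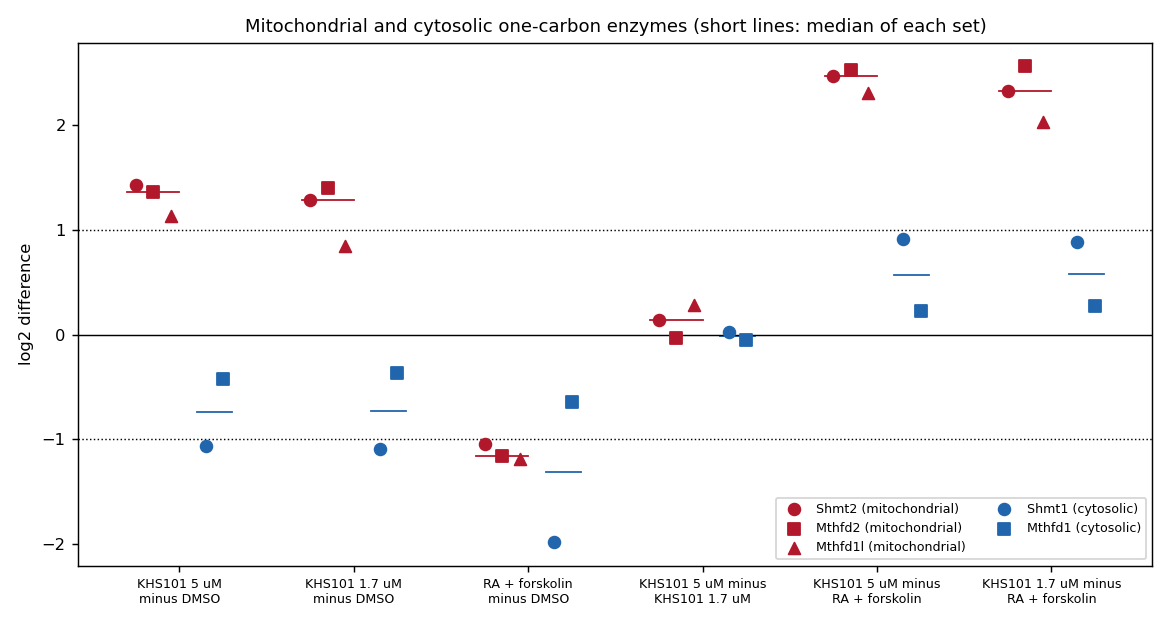
Log2 difference (vertical axis) of the 3 mitochondrial and 2 cytosolic one-carbon genes in each of the 6 comparisons, 1 point per gene, with a short line at the median of each set and dotted lines at 2-fold. With KHS101 against DMSO the mitochondrial genes lie between 0.85 and 1.43 and the cytosolic genes between -1.09 and -0.37; with retinoic acid and forskolin both sets lie below 0.

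The serine synthesis genes had a median difference from DMSO of 1.00 in KHS101 at 5 uM, 0.90 at 1.7 uM and -0.24 with retinoic acid plus forskolin, each smaller in size than the mitochondrial median, although Phgdh and Psph exceeded Mthfd1l at 1.7 uM. Phgdh, which catalyses the first step, had log2 levels of 14.09 in KHS101 at 5 uM, 14.03 at 1.7 uM and 12.86 with retinoic acid plus forskolin, against 13.10 in DMSO. The KHS101 arrays were high and the other arrays lay close together. The Phgdh differences of 1.00 (1.995-fold) and 0.93 from DMSO were just under the threshold at 5 uM and under it at 1.7 uM, and that with retinoic acid and forskolin was -0.24.

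Psph, the phosphatase of the last step, had log2 levels of 13.31 in KHS101 at 5 uM, 13.14 at 1.7 uM and 12.10 with retinoic acid plus forskolin, against 12.24 in DMSO. It was 2.10-fold higher at 5 uM, while the differences of 0.90 at 1.7 uM and -0.15 with retinoic acid plus forskolin did not reach 2-fold. Psat1, the transaminase of the middle step, had log2 levels of 13.92 in KHS101 at 5 uM, 13.99 at 1.7 uM and 13.04 with retinoic acid plus forskolin, against 13.54 in DMSO. Its differences from DMSO were 0.38, 0.46 and -0.49, so none reached 2-fold, although the order of its arrays was that of Phgdh and Psph except between the KHS101 arrays. Against retinoic acid and forskolin, Phgdh was 2.36-fold and Psph 2.32-fold higher in KHS101 at 5 uM, and Psat1 was 1.83-fold higher.

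Counted together, 5 of the 9 genes were higher and 1 was lower in KHS101 at 5 uM than in DMSO, where 6.16% of 8543 measured genes were higher and 8.1% lower. At 1.7 uM, 3 were higher and 1 was lower, where 4.36% and 4.27% of 8533 genes were. With retinoic acid and forskolin 0 were higher and 4 lower, where 4.34% and 3.15% of 8535 genes were. The median difference of the 9 genes was 1.07 at 5 uM, 0.90 at 1.7 uM and -0.84 with retinoic acid plus forskolin, beside medians over all measured genes of 0.00, -0.01 and -0.03. These comparisons share the DMSO array. Because the 9 genes were chosen with earlier results of these data known, counts beside shares anywhere in the text only describe the list.

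Against retinoic acid and forskolin, an array comparison without DMSO, 6 of the 9 genes were higher and 0 lower at each KHS101 concentration. Of all measured genes 8.94% were higher and 10.2% lower at 5 uM (8606 genes), and 5.93% and 5.39% at 1.7 uM (8588 genes). The medians of the 9 genes were 1.24 and 1.17, and those over all measured genes were 0.00 and 0.00. The retinoic acid array was the lowest of the 4 for 9 of 9 genes, and for 31.1% of 8646 genes above the floor on any array. In bulk cultures like these, fewer cells of a type and less RNA per cell cannot be told apart.

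**Figure D3:**
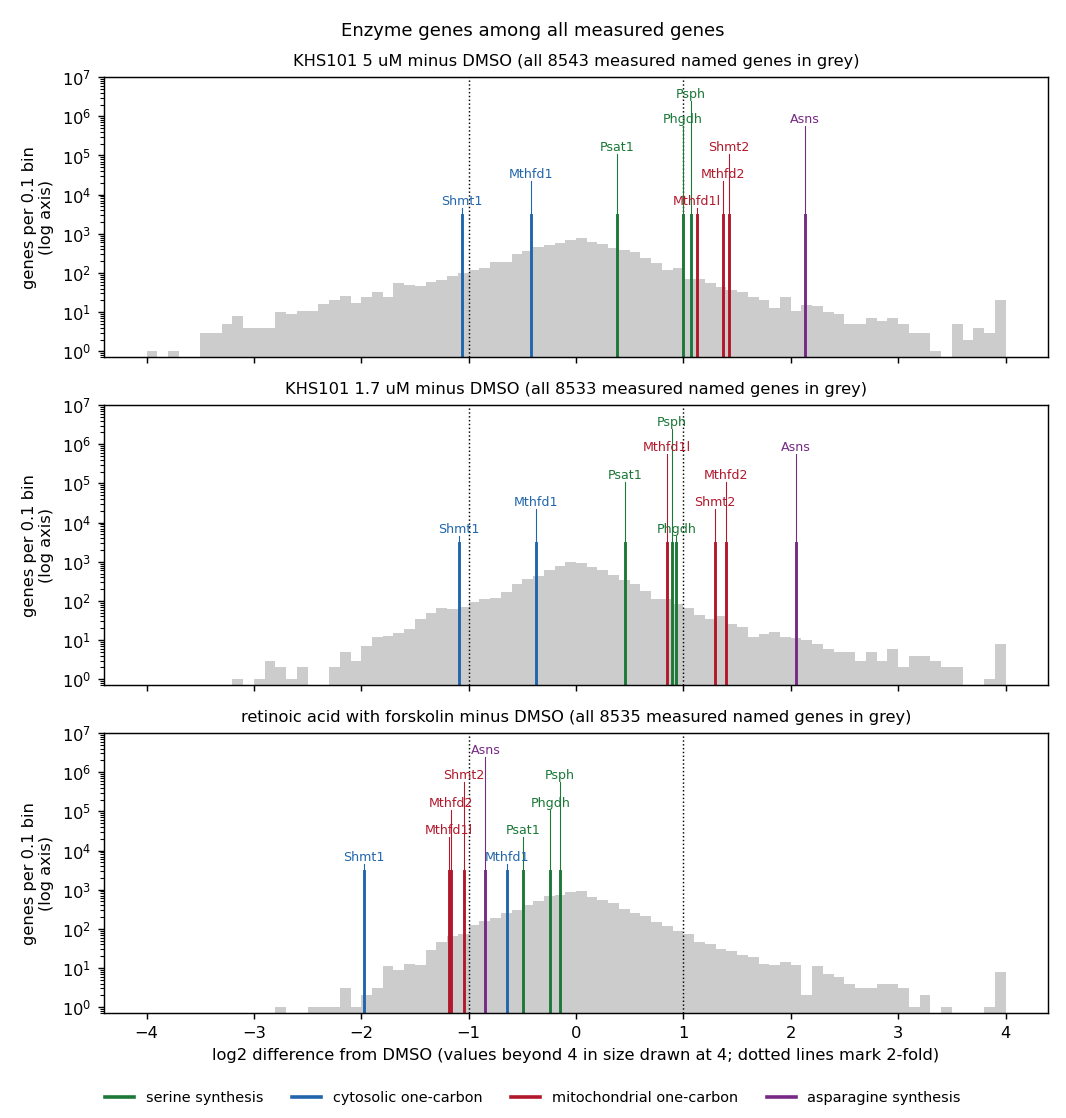
Histograms of the log2 difference from DMSO (horizontal axis) of all measured named genes, with genes per bin on a log vertical axis, for each treatment; coloured lines place the 9 genes and dotted lines mark 2-fold. Asns lies at 2.13 and 2.05 in the KHS101 panels, and all 9 genes lie below 0 in the retinoic acid panel, with Shmt1 at -1.98.

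Between the KHS101 concentrations the 9 genes differed little. The differences, 5 uM minus 1.7 uM, ran between -0.08 (Psat1) and 0.28 (Mthfd1l), and 0 genes reached 2-fold (2.54% of 8500 measured genes did). Of the 9 genes 6 were above 0, and of all 8500 measured genes 4150 were. The median size of the difference was 0.08 for the 9 genes and 0.19 for all measured genes. For Asns, Phgdh, Shmt1 and Mthfd2 the arrays differed by 0.08, 0.06, 0.03 and -0.03.

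Of 18 other enzymes and carriers of folate listed, 16 were annotated and 9 measured; 1 was higher and 1 lower in KHS101 at 5 uM, 0 and 1 at 1.7 uM, and 0 and 2 with retinoic acid and forskolin. In either direction 14.3%, 8.63% and 7.49% of all measured genes passed 2-fold in these comparisons. Counts of the lists below are to be read beside the same shares. Slc19a1, the plasma membrane carrier of reduced folate, had log2 levels of 8.46 in KHS101 at 5 uM, 8.23 at 1.7 uM and 6.44 with retinoic acid plus forskolin, against 7.28 in DMSO, the array order of Asns. Tyms, the thymidylate synthase that consumes folate-bound carbon, was 5.21-fold lower at 5 uM, 2.39-fold lower at 1.7 uM and 2.20-fold lower with retinoic acid plus forskolin. The Tyms level of 5.14 in KHS101 at 5 uM was close to the floor. Fpgs, which retains folate in the cell, was 2.62-fold lower with retinoic acid and forskolin. Sfxn1, the mitochondrial serine carrier, differed by 0.63, 0.63 and -0.22 in the 3 comparisons.

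Among 4 genes of the glycine cleavage system, Amt was 2.21-fold higher in KHS101 at 5 uM and 0 passed 2-fold at 1.7 uM. Gldc was 2.29-fold lower with retinoic acid and forskolin. Both differences have a value close to the floor of 5, Amt in DMSO (5.22) and Gldc with retinoic acid and forskolin (5.14). Of 5 measured methionine cycle genes, 0 passed 2-fold at either KHS101 concentration, and Ahcy, which clears the product of methylation reactions, was 2.44-fold lower with retinoic acid and forskolin. The 5 measured purine synthesis genes, whose pathway uses folate-bound carbon, had a median of 0.20 at 5 uM, 0.01 at 1.7 uM and -0.86 with retinoic acid plus forskolin, and 0 of 5 passed 2-fold in any of the 3. All 5 were below DMSO with retinoic acid and forskolin, by differences between -0.97 and -0.48. In lists of 4 or 5 genes a count of 0 lies near the share of all measured genes passing 2-fold.

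Enzymes for other amino acids numbered 12 measured of 18 listed with KHS101, of which 6 were higher and 0 lower at 5 uM and 5 and 0 at 1.7 uM. Pck2, which makes phosphoenolpyruvate in mitochondria, was 7.78-fold and 7.44-fold higher, and Aldh18a1, the first enzyme of proline synthesis, 3.58-fold and 2.90-fold. Another probe set of Pck2 gave a log2 difference of 4.34 at 5 uM, taken without the floor, beside 2.96 here. Cth, of cysteine synthesis, lay under the floor in DMSO and was at least 82.8-fold and 51.8-fold higher. Bcat2, a branched-chain transaminase, was 2.80-fold and 2.17-fold higher. With retinoic acid and forskolin 0 of 11 were higher and 1 was lower, Pck2 by 2.33-fold.

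Carriers that bring serine, glycine or asparagine into cells were higher with KHS101 in 4 of 6 measured cases at each concentration, with 1 lower at 5 uM and 0 at 1.7 uM. Slc1a5 was 6.42-fold and 5.95-fold higher, Slc38a1 4.39-fold and 3.50-fold, Slc1a4 4.27-fold and 3.27-fold, and the glycine carrier Slc6a9 3.38-fold and 2.84-fold; Slc38a3 was 2.21-fold lower at 5 uM. Other probe sets of Slc6a9 gave log2 differences of 2.47 and 3.93 at 5 uM, taken without the floor, beside 1.76 here. With retinoic acid and forskolin 0 of 6 passed 2-fold (median -0.23).

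Of 10 listed regulators, 6 were higher and 0 lower at each KHS101 concentration. Atf4 was 3.87-fold higher in KHS101 at 5 uM and 3.32-fold higher at 1.7 uM. Its difference with retinoic acid and forskolin was -0.31. Its partner in stress, Ddit3, was 12.1-fold and 5.73-fold higher, and Cebpb was 14.5-fold and 4.90-fold higher. Trib3 was 136-fold and 68.0-fold higher, the largest differences of the list, and Atf5 was 11.5-fold and 8.68-fold higher. Nfe2l2 was 5.24-fold and 2.32-fold higher. Eif2ak3 and Eif2ak4, kinases that act upstream of ATF4, differed by 0.20 and 0.36 at 5 uM. Myc, a transcription factor of biosynthetic genes, had log2 levels of 12.10 in KHS101 at 5 uM, 11.73 at 1.7 uM and 10.38 with retinoic acid plus forskolin, against 12.02 in DMSO. It was 3.12-fold lower with retinoic acid and forskolin, the 1 regulator called lower there, and within 2-fold of DMSO with KHS101. The part of these regulators in the levels of the 9 genes was not tested.

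**Figure D4:**
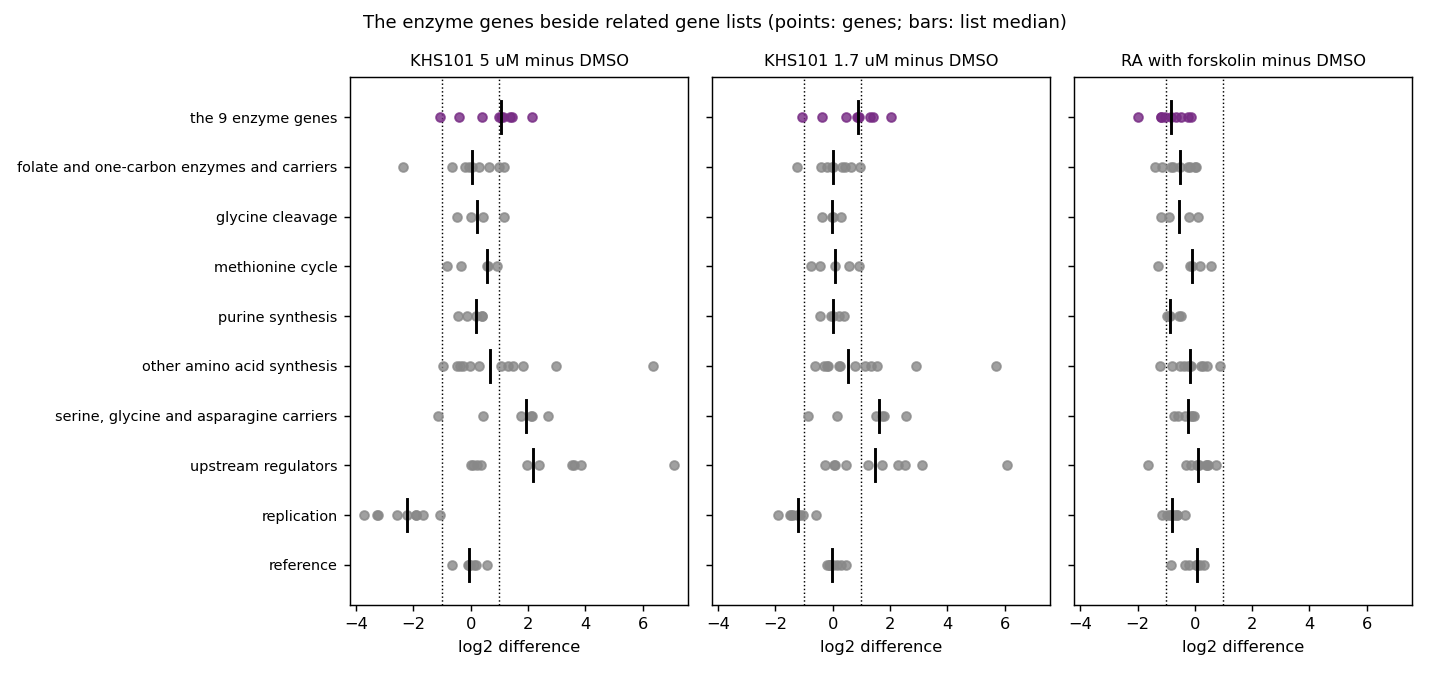
Log2 difference from DMSO (horizontal axis) of the 9 genes and of the measured members of 9 related lists, for each treatment; points are genes, black bars list medians and dotted lines 2-fold, and Cth with KHS101 is drawn at its lower bound. Medians of the carriers and regulators are 1.92 and 2.17 in KHS101 at 5 uM, and that of the replication genes is -2.23.

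Replication genes differed along with the cytosolic enzymes, but in another order over the arrays. The 9 measured replication genes (Mcm2 to Mcm7, Pcna, Rrm1, Tk1) had a median of -2.23 in KHS101 at 5 uM, -1.23 at 1.7 uM and -0.80 with retinoic acid plus forskolin, with 9, 8 and 1 of 9 called lower. Shmt1 had -1.06, -1.09 and -1.98 in the same order and Mthfd1 -0.42, -0.37 and -0.64, so both cytosolic genes were lowest where the replication genes were least low. The part of cell division in these levels was not tested. The 8 measured reference genes had medians of -0.04, -0.03 and 0.07, and 0 of 8 passed 2-fold.

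Markers of other cell types also differed between the groups. The summed level of the 4 oligodendrocyte lineage markers was 13.71 on the log2 scale in KHS101 at 5 uM, 14.16 at 1.7 uM and 15.41 with retinoic acid plus forskolin, against 14.85 in DMSO. The summed level of the 5 astrocyte markers was 13.62, 13.93 and 14.91 in the same order, against 13.87 in DMSO, with Gfap and Aqp4 under the floor throughout. Both sums were highest with retinoic acid and forskolin, where the 9 genes were lowest. Such a sum is weighted toward its brightest probe sets. With retinoic acid and forskolin S100b (1.05), Aldoc (1.14) and Mbp (1.29) passed 2-fold from DMSO. Slc1a3 (0.02), Olig2 (0.04), Sox10 (0.27) and Cnp (0.47) did not. In KHS101 at 5 uM Mbp (-2.11), Olig2 (-1.58), Cnp (-1.07) and Aldoc (-1.47) passed 2-fold downward. Sox10 (-0.78), Slc1a3 (-0.72) and S100b (0.17) did not. At 1.7 uM Mbp alone of these passed it, at -1.54. The summed level of the 5 progenitor markers was 15.32, 15.74 and 15.93, against 16.05 in DMSO. Among them Fabp7 was 4.33-fold lower and Hes1 2.54-fold higher in KHS101 at 5 uM. Vim was 2.16-fold lower with retinoic acid and forskolin. The fibroblast marker Postn was at least 3.48-fold higher in KHS101 at 5 uM, 6.86-fold at 1.7 uM and 3.96-fold with retinoic acid plus forskolin. Of the 2 measured neuronal markers, Tubb3 was 2.20-fold higher with retinoic acid and forskolin. Its differences from DMSO were 0.63 in KHS101 at 5 uM and 0.75 at 1.7 uM. Map2 differed by 0.14 at 5 uM, 0.21 at 1.7 uM and 0.32 with retinoic acid plus forskolin. The endothelial marker Kdr was above the floor on the retinoic acid array alone, at 6.54. The other annotated endothelial markers, Pecam1 and Tek, were at or under the floor on every array. The part of these markers in the results was not tested.

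For 4 of the genes the most similar profiles were sought among 8207 other named genes above the floor on all 4 arrays, by Euclidean distance over the 3 differences from DMSO. Nearest to Asns were Eif4ebp1, an inhibitor of translation initiation, at a distance of 0.21 log2 units, then Bag3 (0.35) and Slc1a4 (0.36). Nearest to Phgdh were Sult1c2, Pi4k2b and Fam149a, at distances of 0.12 each. For Mthfd2 they were Camk2b (0.20), Igdcc4 (0.37) and Igfbp4 (0.47), and for Shmt1 they were Pdlim1 (0.34), Ezr (0.42) and Ercc2 (0.54). Eif4ebp1 lay 2.27 above DMSO in KHS101 at 5 uM and 2.02 at 1.7 uM, where Asns lay 2.13 and 2.05 above it.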

How the data were processed

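The authors deposited log2 expression values for 31099 probe sets on 4 arrays. Per the submitters' processing notes, GCRMA and R 2.6.2 were used, with no role and no build stated; the log2 scale follows from the range of the values. Per the labels' protocols, total RNA was extracted on columns and amplified with a 3' kit. Sorted values of the arrays lay within 0.19 of each other at every rank (median 0.06), so a shift shared by all genes would not show.

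Of 31042 probe sets that are not controls, the platform annotation gave 20826 a single symbol, 436 several and 9780 none; those with several or none were not used. Gene identifiers of 20758 matched RefSeq (assembly GRCr8), and 0 symbols changed. A gene took its probe set with the highest mean. Values under log2 = 5 were raised to 5, and a gene counted as measured where either array of the comparison exceeded 5. The 6 comparisons were each treatment minus DMSO, the KHS101 concentrations, and each of these minus retinoic acid with forskolin. With 1 array a group no test was run. Calculations used Python 3.11.15, pandas 2.3.3 and numpy 2.4.6 and were tested on simulated data.

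The 9 genes and all lists were chosen with earlier results of these data known. From each list the text names called genes, up to 4 with the largest differences in each direction per comparison with DMSO. Not all of these are named. The text gives Atf4 and Nfe2l2 outside this rule and some uncalled members as values. The 3 nearest profiles are given for Asns, Phgdh, Mthfd2 and Shmt1. Amino acid sequences were not used here.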

Additional observations from a re-analysis of the deposited data

How the results depend on the processing

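The counts, medians and compartment differences of the 6 comparisons, 18 results, were recomputed with a floor of log2 = 4, a floor of log2 = 6, no floor, the mean over a gene's probe sets, and quantile normalization, and the counts also at 3-fold and 1.5-fold. Of 102 recomputed values, 98 stayed within 1.5 times of a count or within 0.1 of a median difference. The others were counts at another threshold. At 3-fold, 1 gene (Asns) passed in KHS101 at 5 uM (6.06% of all measured genes), 1 (Asns) at 1.7 uM (2.51%) and 1 (Shmt1) with retinoic acid and forskolin (1.97%). At 1.5-fold, 7 passed at 1.7 uM (6 higher, 1 lower, beside 21.1% of all measured genes). The floor and the mean over probe sets moved none of the 9 genes, since each lies above every floor and has 1 probe set. Quantile normalization moved single differences by at most 0.10 and took 2 of them past 2-fold: Phgdh in KHS101 at 5 uM against DMSO (1.02) and Shmt1 in KHS101 at 5 uM against retinoic acid with forskolin (1.02). No paired analysis was possible because each group has 1 array. With 1 probe set a gene, probe noise has no repeat measurement either.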
